A study of Mus musculus with 14 samples.

Results

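The genes described here are 10 outputs and feedback arms of the circadian clock: Dbp, Tef, Hlf, Nfil3, Per1, Per2, Per3, Nr1d1, Nr1d2 and Bhlhe40. They were taken by name for their known place in the clock, by a rule that uses no measured value though with earlier results of these data known, from the 17656 genes listed for each liver. The livers came from 14 mice in 4 groups. WT saline mice (n = 3) carried the normal Ythdf1 gene and received saline, and KO saline mice (n = 3) are labelled as Ythdf1 knockout and received saline. WT ConA mice (n = 4) and KO ConA mice (n = 4) had the same genotypes and received ConA at 8 mg/kg. ConA (concanavalin A) is a plant lectin that, injected into a vein, activates T cells and causes an immune-mediated hepatitis, and Ythdf1 encodes a protein that binds mRNA carrying the m6A mark. All livers were taken 8 h after the injection. The study's methods give a C57BL/6 background for all mice, a knockout in every tissue made with CRISPR/Cas9, and male mice in the experiments at this dose. Its mice were 6 to 10 weeks old, with no age given for each mouse. The clock time of injection and collection is not given in the sources used here. A difference in the time of day between groups therefore cannot be told apart from the groups themselves.

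In the circadian clock of a cell, ARNTL (BMAL1) pairs with CLOCK or NPAS2 and switches on genes that carry an E-box, among them the Per genes, the PAR bZIP factors DBP, TEF and HLF, and the nuclear receptors NR1D1 and NR1D2 (REV-ERBα and REV-ERBβ). PER proteins, with CRY proteins, repress that pair in turn, and NR1D1 and NR1D2 repress Arntl. The PAR bZIP factors activate genes through a D-box, where NFIL3 binds as a repressor, and BHLHE40 (DEC1) is a repressor at E-boxes. In liver this output sets daily rhythms of bile acid, drug, lipid and glucose metabolism. Per1 is also induced directly by glucocorticoids and by CREB, which binds a CRE.

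The promoter letters through which the clock is known to act were looked up in RefSeq promoters of build GRCm38.p6, from 250 bases before to 50 bases after each start. The table held 10 promoters for 8 of the genes. The other two are Per2 and Bhlhe40. Searched on both strands were CACGTG for the E-box, TTATGTAA or TTACGTAA for the D-box and TGACGTCA for the CRE. TAGGTCA, also searched, is only part of the site that the REV-ERB and ROR receptors share. It is called the receptor site below, and the full site was not searched for. These words stand in 7.15% (E-box), 1.06% (D-box), 1.79% (CRE) and 2.61% (receptor site) of all 32851 promoters of the same length. The stretches below are shown because they hold every match in the 10 promoters searched, so that the genes whose levels are given next can be read beside them. Each lies before the start of its listed promoter, runs 5′ to 3′ on the gene's own strand, and has the matched letters in capitals. The starts used for Per1, for Nfil3 and for the downstream promoter of Tef lie within the gene spans given below. Another Per1 promoter, further downstream, was listed and held no match.
Per3 (chr4:151044801-151044885, minus strand, D-box): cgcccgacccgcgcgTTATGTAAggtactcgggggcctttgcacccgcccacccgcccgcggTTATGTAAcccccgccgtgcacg
Tef, upstream start (chr15:81802531-81802566, plus strand, E-box): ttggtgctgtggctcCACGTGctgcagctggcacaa
Tef, downstream start (chr15:81811261-81811296, plus strand, E-box): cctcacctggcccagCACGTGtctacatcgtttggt
Per1 (chr11:69098768-69098803, plus strand, E-box): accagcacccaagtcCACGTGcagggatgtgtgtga
Hlf (chr11:90390918-90390941, minus strand, CRE): gcgcggtgcgggcccTGACGTCAc
Nfil3 (chr13:52981040-52981066, minus strand, receptor site on the opposite strand): cgcggcgctcggaacTGACCTActaac
Per3 was the gene with 2 D-boxes. No match was found in the listed promoters of Dbp, Nr1d1 and Nr1d2, which says only that these letters are not in this window. A match in letters is a description of the sequence and no evidence of binding.

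The values are TPM, a measure of transcript abundance that is scaled for gene length and for the total of each library. They carry no read depth, so there is no counting interval and error was judged from the spread over mice. Fold changes are differences of group means of log2(TPM + 1), which understates changes of low genes, and were tested with limma across all genes. Calls were made where the p adjusted by Benjamini-Hochberg was under 0.05. WT saline replicates 2 and 3 were closer to each other than any other pair of the same group. Their median absolute difference in log2(TPM + 1) over 11327 genes was 0.0793, against 0.128 to 0.397 in the other pairs. Replicate 3 of both ConA groups stood apart on the second principal component, which held 7.77% of the variance. Ythdf1 itself was listed in WT mice at 12.0 to 13.9 TPM after saline and 18.7 to 25.6 after ConA, and in KO mice at 18.4 to 20.8 TPM after saline and 15.5 to 26.2 after ConA. Ythdf1 was called higher in KO saline than in the WT mice given saline, by 0.53 (adjusted p = 0.0181, limma), without overlap, and by 0.55 with an adjusted p of 0.0825 with WT saline replicates 2 and 3 averaged. The RNA level thus runs against a loss of the transcript, and it does not measure the protein. The study shows a targeting scheme and tail genotyping for its knockout line. It also shows blots for YTHDF1 protein in liver and spleen of its bone marrow chimeras. Which part of the gene was deleted is not given in the text of the sources used here, and KO stands throughout for livers labelled so.

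ConA changed 8 of the 10 genes in WT livers and 8 of the 10 in KO livers. In both genotypes Nfil3, Per1 and Bhlhe40 were higher, and Dbp, Tef, Hlf and Per3 were lower. The remaining call was Nr1d2, lower, in WT livers and Per2, lower, in KO livers. Among all genes tested, 22.0% were called higher and 31.0% lower in WT ConA against WT saline, and 33.9% were called higher and 30.7% lower in KO ConA against KO saline. The members thus counted 3 higher and 5 lower of 10 in each genotype, where 5704 of 10768 and 7099 of 10988 of all genes were called. Their median log2 fold change was -0.65 in WT and -0.52 in KO, beside -0.07 and 0.07 over all genes tested. Leaving out replicate 3 of both ConA groups, a choice made after seeing the data, kept the 8 calls in WT and added Nr1d2, higher, in KO.

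**Figure D1:**
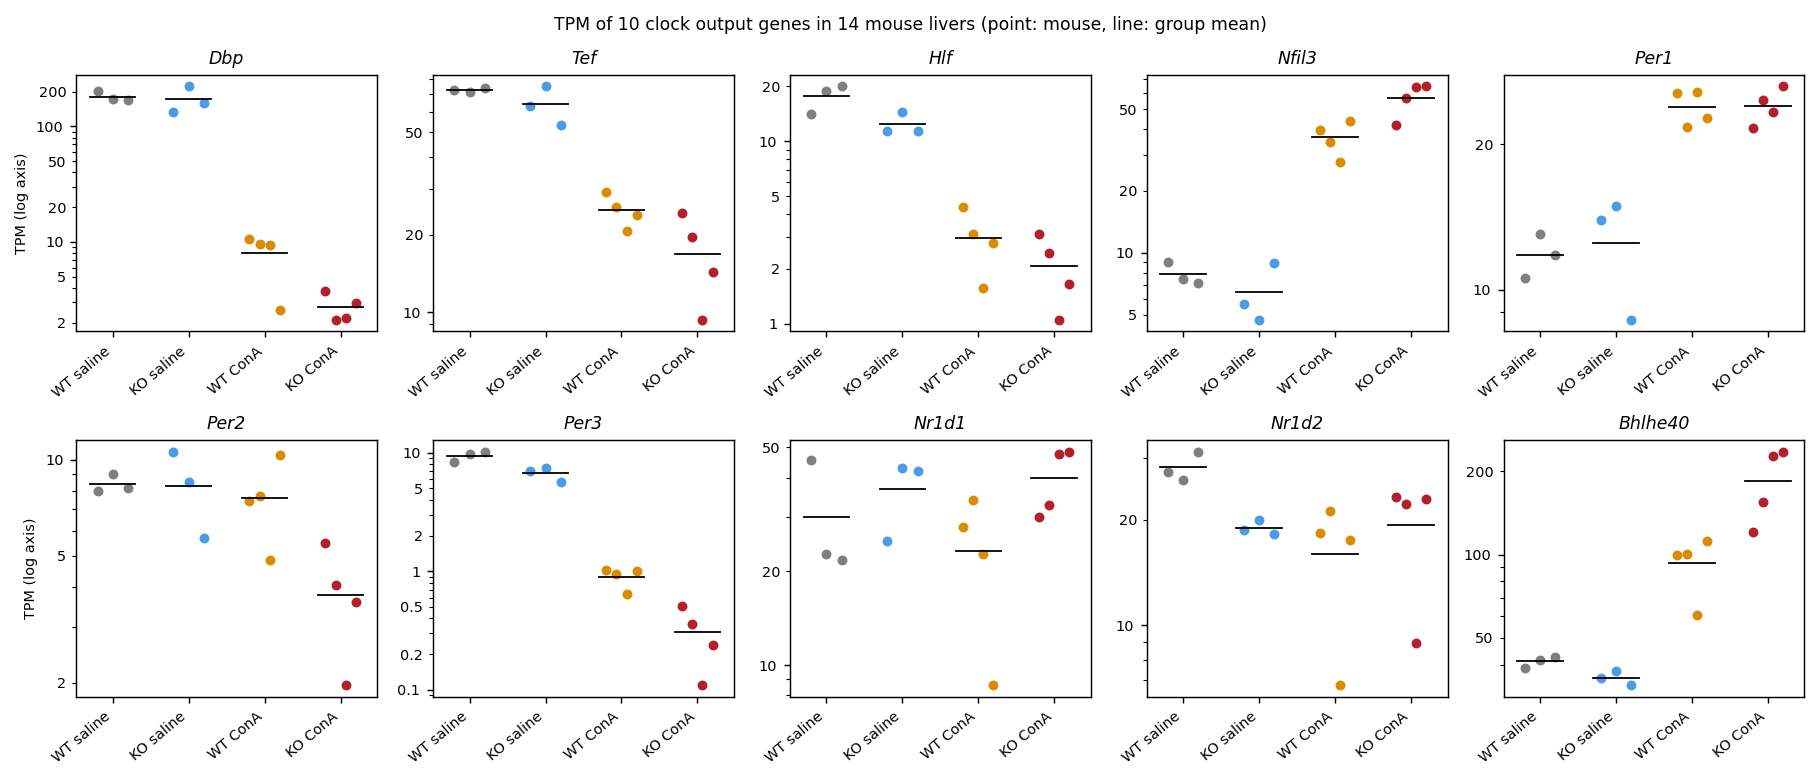
TPM of each of the 10 genes (log axis, a scale of its own in each panel) in the 14 livers, with a point for each mouse and a line for the group mean. Dbp, Tef, Hlf and Per3 sit lower and Nfil3, Per1 and Bhlhe40 higher in every ConA mouse than in every saline mouse, while Nr1d1 overlaps between saline and ConA.

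The widest change was that of Dbp, a PAR bZIP activator. Dbp (chr7:45705100-45710203), the D-box binding factor whose RNA swings strongly over the day in liver, was the most abundant of the 10 genes in saline livers. It was listed at 203, 171 and 169 TPM in WT saline, at 133, 223 and 160 in KO saline, at 10.5, 9.55, 9.46 and 2.57 in WT ConA and at 3.72, 2.12, 2.19 and 2.96 in KO ConA. Every saline liver was far above every ConA liver, and WT ConA replicate 4 sat with the KO ConA livers. On the log2 scale the difference was -4.47 ± 0.37 (SE) in WT (adjusted p = 1.44e-05, limma) and -5.52 ± 0.20 in KO (adjusted p = 7.88e-09), and the mean TPM was 22.6 times and 62.5 times lower. Dbp shares 539 of its 2993 exon bases (18.0%) with Sphk2 on the opposite strand, and whether the library kept strand is not given in the sources used here, so reads from that stretch cannot be told apart. Sphk2 was listed at 19.6 to 27.4 TPM in saline livers and at 5.50 to 12.5 TPM in ConA livers, and its part in the Dbp result was not tested.

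Tef (chr15:81802673-81826863), the thyrotroph embryonic factor, fell less steeply. Its TPM was 73.1, 71.5 and 73.9 in WT saline, 63.4, 75.3 and 53.5 in KO saline, 29.2, 25.6, 20.6 and 23.9 in WT ConA and 24.2, 19.6, 9.36 and 14.4 in KO ConA. No ConA liver reached the lowest saline liver. Tef had a log2 fold change of -1.53 ± 0.14 in WT (adjusted p = 2.35e-05, limma) and -1.93 ± 0.26 in KO (adjusted p = 8.04e-05). Hlf (chr11:90336535-90390917), the hepatic leukemia factor, is the third factor of this family. It was listed at 14.1, 18.8 and 20.1 TPM in WT saline, 11.4, 14.5 and 11.4 in KO saline, 4.38, 3.10, 1.56 and 2.77 in WT ConA and 3.10, 2.44, 1.05 and 1.64 in KO ConA. The ConA livers all lay below the saline livers, with replicate 3 the lowest in each ConA group for both Tef and Hlf. Hlf had a log2 fold change of -2.27 ± 0.25 in WT (adjusted p = 6.35e-05, limma) and -2.17 ± 0.23 in KO (adjusted p = 1.4e-05).

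Nfil3 (chr13:52967209-52982878), the repressor that competes with the PAR bZIP factors for the D-box and is also induced by cytokines in leukocytes, rose. Its TPM was 9.06, 7.46 and 7.15 in WT saline, 5.68, 4.74 and 8.97 in KO saline, 39.6, 34.6, 27.6 and 43.9 in WT ConA and 41.7, 56.5, 64.2 and 64.5 in KO ConA. The lowest ConA liver was above the highest saline liver, and only KO ConA replicate 1 fell within the range of the WT ConA mice. Nfil3 had a log2 fold change of 2.06 ± 0.18 in WT (adjusted p = 1.71e-05, limma) and 2.97 ± 0.21 in KO (adjusted p = 6.96e-07). Dbp and Nfil3 changed places in abundance. Tef, another activator at the D-box, still overlapped Nfil3 in the WT ConA livers (20.6 to 29.2 against 27.6 to 43.9 TPM). Dbp stood 17.8 to 47.0 times above Nfil3 in the 6 saline livers, and Nfil3 stood 2.91 to 17.1 times above Dbp in the WT ConA livers and 11.2 to 29.3 times above it in the KO ConA livers.

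**Figure D2:**
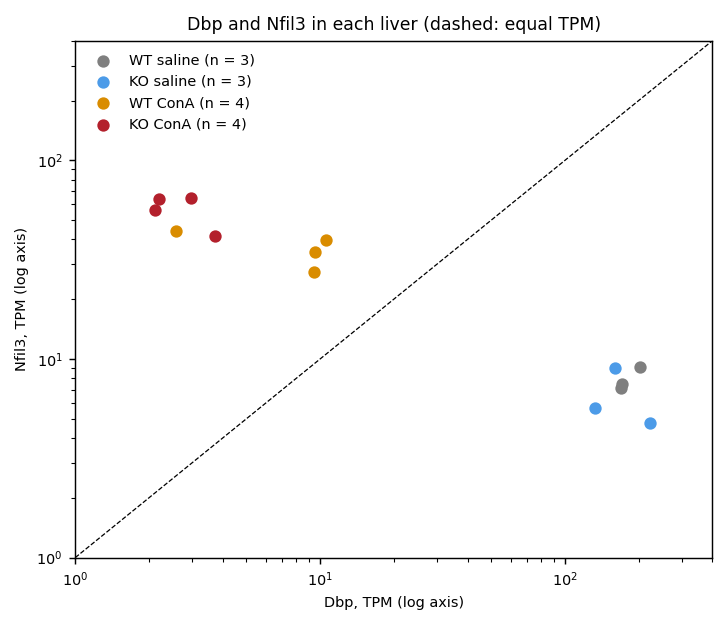
Dbp TPM (horizontal, log axis) against Nfil3 TPM (vertical, log axis), with a point for each of the 14 mice and a dashed line of equal TPM. All 6 saline livers lie below the line at 17.8 to 47.0 times more Dbp than Nfil3, and all 8 ConA livers lie above it.

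The Per genes, the repressors of the ARNTL pair, went separate ways. Per1 (chr11:69095108-69109965) was listed at 10.6, 13.1 and 11.8 TPM in WT saline, 13.9, 14.9 and 8.67 in KO saline, 25.6, 21.7, 25.7 and 22.7 in WT ConA and 21.6, 24.7, 23.3 and 26.4 in KO ConA. The ConA livers were all above the saline livers and the genotypes overlapped under both treatments. Per1 rose by 0.96 ± 0.13 (SE) on the log2 scale in WT (adjusted p = 3.04e-04, limma) and by 0.92 ± 0.18 in KO (adjusted p = 0.001). Per3 (chr4:150997018-151044707), the gene with the 2 D-boxes shown above, fell. Its TPM was 8.34, 9.75 and 10.2 in WT saline, 6.95, 7.43 and 5.63 in KO saline, 1.03, 0.94, 0.64 and 1.0 in WT ConA and 0.51, 0.36, 0.11 and 0.24 in KO ConA. The 4 groups did not overlap with one another. Per3 had a log2 fold change of -2.46 ± 0.14 in WT (adjusted p = 2e-06, limma) and -2.56 ± 0.16 in KO (adjusted p = 3.46e-07), and the ratio of mean TPM was 10.5-fold and 21.9-fold lower.

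Per2 (chr1:91415977-91459351) overlapped between saline and ConA in WT livers, with 7.97, 9.02 and 8.14 TPM in WT saline and 7.43, 7.72, 4.86 and 10.3 in WT ConA. Its log2 fold change there was -0.16 with a 95% interval from -0.64 to 0.31 (adjusted p = 0.541, limma). In KO livers Per2 was listed at 10.6, 8.51 and 5.70 TPM after saline and 5.50, 4.04, 1.97 and 3.59 after ConA, and it fell by 0.98 ± 0.27 on the log2 scale (adjusted p = 0.00837). The highest KO ConA liver lay just under the lowest KO saline liver. The ratio of Per1 to Per3 was 1.16 to 2.01 in saline livers, and after ConA 22.7 to 40.2 in WT and 42.3 to 212 in KO livers. After ConA these ratios divide by very low Per3 values, 0.64 to 1.03 TPM in WT and 0.11 to 0.51 in KO. The 212 is from KO ConA replicate 3, with Per3 at 0.11 TPM. Whether the ratio differs between the genotypes was not tested.

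Of the REV-ERB receptors, Nr1d1 was not called with ConA in either genotype, and Nr1d2 was called lower in WT livers. Nr1d1 (chr11:98767932-98775377) spread widely within groups, at 45.5, 22.7 and 21.7 TPM in WT saline, 25.0, 43.1 and 42.1 in KO saline, 27.9, 33.9, 22.7 and 8.64 in WT ConA and 30.0, 32.7, 47.7 and 48.5 in KO ConA. Saline and ConA mice overlapped in both genotypes. The log2 fold change was -0.42 in WT with an interval from -1.38 to 0.55 (adjusted p = 0.442, limma) and 0.12 in KO with an interval from -0.38 to 0.62 (adjusted p = 0.66). Nr1d1 shares 263 of its 3077 exon bases (8.55%) with Thra on the opposite strand, which was listed at 4.86 to 10.1 TPM in saline livers and 1.07 to 2.17 TPM in ConA livers, and its part was not tested.

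Nr1d2 (chr14:18204056-18239106) was listed at 27.4, 26.0 and 31.3 TPM in WT saline and 18.4, 21.2, 6.77 and 17.6 in WT ConA. The WT groups did not overlap, and replicate 3 was the lowest ConA liver. The log2 fold change was -0.88 ± 0.32 (adjusted p = 0.0451, limma). That call was lost without WT saline replicate 1, 2 or 3 (adjusted p = 0.0976, 0.0846 and 0.129), without WT ConA replicate 1 or 4 (0.0529 and 0.0548), and with WT saline replicates 2 and 3 averaged (0.104), and with no filter on low values (0.12). In KO livers Nr1d2 was at 18.7, 19.9 and 18.2 TPM after saline and 23.2, 22.1, 8.90 and 22.9 after ConA, with a log2 fold change of -0.06 and an interval from -0.68 to 0.56 (adjusted p = 0.856). There 3 of the 4 ConA livers lay above every saline liver and replicate 3 below them. Without KO ConA replicate 3, Nr1d2 was called higher, at 0.25 (adjusted p = 0.0412).

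Bhlhe40 (chr6:108660629-108666925), the E-box repressor that is also induced by hypoxia and in activated lymphocytes, was the most abundant of the 10 genes in ConA livers. Its TPM was 39.0, 41.7 and 42.7 in WT saline, 36.0, 37.8 and 33.8 in KO saline, 99.7, 100.5, 60.4 and 112 in WT ConA and 121, 155, 228 and 236 in KO ConA. By TPM the groups were ordered KO saline, WT saline, WT ConA and KO ConA, with no overlap between any of them. Neither step between the genotypes was called by limma under the main settings. KO saline against WT saline was -0.19 on the log2 scale, with an interval from -0.39 to 0.0032 (adjusted p = 0.134). KO ConA against WT ConA was 0.96 (adjusted p = 0.0947). How many of all genes separate the groups in this way was not counted. With ConA, the log2 fold change of Bhlhe40 was 1.13 ± 0.20 in WT (adjusted p = 0.00137, limma) and 2.28 ± 0.21 in KO (adjusted p = 4.82e-06).

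**Figure D3:**
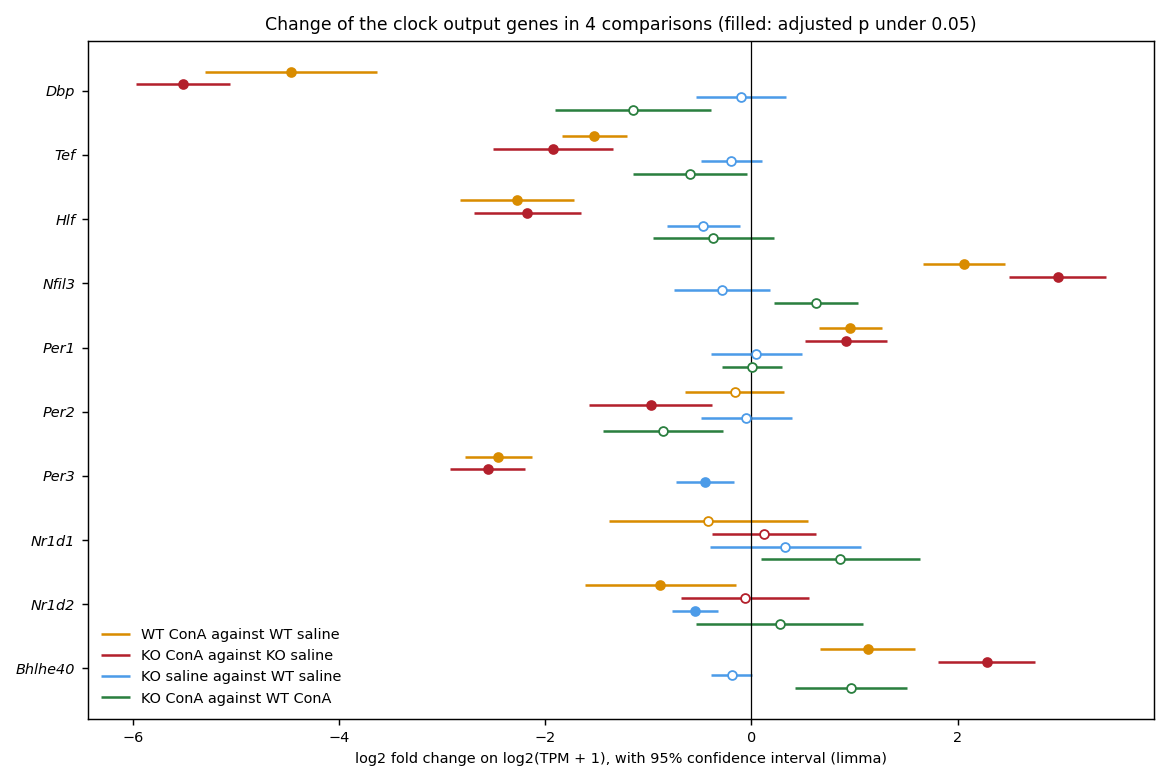
Log2 fold change of each gene on the log2(TPM + 1) scale with its 95% confidence interval, in 4 comparisons shown by colour, with filled points for genes called at an adjusted p under 0.05 (limma). The widest change is that of Dbp, at -4.47 in WT and -5.52 in KO, and no point of KO ConA against WT ConA is filled. Per3 was not tested in that comparison.

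The order of abundance among the 10 genes turned over with ConA. In WT saline it ran from Dbp (169 to 203 TPM) and Tef (71.5 to 73.9) through Bhlhe40, Nr1d1, Nr1d2, Hlf, Per1, Per3 and Per2 to Nfil3 (7.15 to 9.06). Bhlhe40 and Nr1d1, Nr1d1 and Nr1d2, Per3 and Per2, and Per2 and Nfil3 overlapped there. In WT ConA the order ran from Bhlhe40 (60.4 to 112) and Nfil3 (27.6 to 43.9) through Tef, Per1, Nr1d1, Nr1d2, Dbp and Per2 to Hlf (1.56 to 4.38) and Per3 (0.64 to 1.03), and neighbours from Nfil3 down to Per2 overlapped.

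The genotypes were compared first after saline. Of the 10 genes, Per3 and Nr1d2 were called lower in the KO mice and none was called higher, where 6.30% of all genes tested were called higher and 12.9% lower. Per3 stood at 5.63 to 7.43 TPM in KO saline against 8.34 to 10.2 in WT saline, a log2 fold change of -0.45 ± 0.12 (adjusted p = 0.0424, limma). Nr1d2 stood at 18.2 to 19.9 TPM against 26.0 to 31.3, a log2 fold change of -0.55 ± 0.09 (adjusted p = 0.0181). Both groups were apart in both genes. These calls rested on the closely matching WT saline replicates 2 and 3. With that pair averaged and counted as 1 mouse, the log2 fold changes were -0.41 for Per3 (adjusted p = 0.15) and -0.54 for Nr1d2 (adjusted p = 0.0787), and neither was called. The count was also 0 without WT saline replicate 2, without WT saline replicate 3 and without KO saline replicate 1, and 1 without KO saline replicate 2. Per3 alone lost its call without KO saline replicate 2 (adjusted p = 0.0599, limma) or 3 (0.0567), with no filter on low values (0.0995) and after median-ratio rescaling (0.0892). With all 14 libraries in the fit neither Per3 (0.123) nor Nr1d2 (0.412) was called. The number of all genes called fell from 2009 to 49 with the pair averaged. Of the others, Hlf at -0.47 had an adjusted p of 0.0661 and was called, at -0.61, without WT saline replicate 1 (0.0248). Nfil3 at -0.29 had an adjusted p of 0.32 and was called, at -0.52, without KO saline replicate 3 (0.033), whose 8.97 TPM was the highest of the KO saline values.

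After ConA, none of the 9 genes tested was called between KO ConA and WT ConA by limma, where 0.342% of all genes were called higher and 0.0856% lower. At an unadjusted p under 0.05 there were 6, among 1753 of all 10519 genes tested. Bhlhe40 had the smallest p of the members, with 121 to 236 TPM in KO ConA against 60.4 to 112 in WT ConA, no overlap, and a log2 fold change of 0.96 with an interval from 0.42 to 1.51 (adjusted p = 0.0947). The other 5 were Nfil3 at 0.63 (adjusted p = 0.133), Dbp at -1.15 (0.135), Per2 at -0.86 (0.145), Nr1d1 at 0.86 (0.248) and Tef at -0.60 (0.26). For Per1 the difference was 0.0056 with an interval from -0.28 to 0.30. Per3 was too low to be tested, and its TPM did not overlap, at 0.11 to 0.51 in KO ConA against 0.64 to 1.03 in WT ConA. With no filter on low values its log2 fold change was -0.55 ± 0.11 (adjusted p = 0.146).

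Some of these differences were called under other settings. With all 14 libraries in the fit, Bhlhe40 (adjusted p = 0.0168), Dbp (0.037) and Per2 (0.0484) were called, with the same values of the difference. Without WT ConA replicate 4, whose Dbp was 2.57 TPM beside 9.46 to 10.5 in the other WT ConA livers, the log2 fold change of Dbp was -1.55 (adjusted p = 0.0265). No member was called with replicate 3 of both ConA groups left out.

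Whether ConA acted differently in the genotypes was tested as an interaction over all 14 livers. By limma 0 of the 10 genes were called, where 2.64% of all 11327 genes tested were called higher and 2.14% lower. At an unadjusted p under 0.05 there were 4 members, among 2862 of all genes tested. Bhlhe40 had a difference between the ConA responses of 1.16 with an interval from 0.47 to 1.84 (adjusted p = 0.0512), Nfil3 of 0.91 (0.0794), Dbp of -1.05 (0.174) and Per2 of -0.81 (0.186). The ConA fall of Per2, called in KO and not in WT, was therefore not shown to differ between them, and nor was that of Nr1d2 at 0.82 (0.289). Bhlhe40 was called with a filter at 5 TPM (0.046), without WT ConA replicate 4 (0.0371), without KO ConA replicate 1 (0.0351) and without replicate 3 of both ConA groups (0.0488). Dbp was called without WT ConA replicate 4 at -1.45 (0.0127), Nfil3 without KO saline replicate 3 at 1.14 (0.0382), and Nr1d2 without replicate 3 of both ConA groups at 0.80 (0.0081).

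Around these outputs, the core activator Arntl rose from 0.46 to 0.61 TPM in WT saline to 0.89 to 4.16 in WT ConA, by 1.11 ± 0.29 on the log2 scale (adjusted p = 0.01, limma). In KO livers it rose from 0.42 to 0.68 TPM to 2.88 to 5.40, by 1.71 ± 0.20 (adjusted p = 2.09e-05). Its levels were low throughout, and the ratio of Nr1d1 to Arntl was 37.3 to 103 in saline livers and 2.08 to 25.5 in ConA livers. Its partner Clock was not called, at -0.0059 in WT (adjusted p = 0.985) and 0.31 in KO (0.322), and neither were the repressors Cry1 (0.394 and 0.283) and Cry2 (0.072 and 0.984). Npas2 stayed under the limit for testing.

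Of 11 other clock genes, 9 were tested in each ConA comparison. In WT livers 2 were called higher (Arntl and Csnk1e) and 1 lower (Btrc), and in KO livers 4 were higher (Arntl, Csnk1e, Csnk1d and Rora) and 0 lower. The kinase gene Csnk1d, whose product phosphorylates PER proteins, was the only one of the 10 tested that was called for the interaction, at 0.997 (adjusted p = 0.028). In KO saline against WT saline 3 of 8 were called lower (Cry2, Rora and Csnk1d), and in KO ConA against WT ConA 0 of 9 were called. Arntl there had an unadjusted p of 0.0471 and an adjusted p of 0.29. With ConA, 22.0% of all genes tested were called higher and 31.0% lower in WT, and 33.9% higher and 30.7% lower in KO. In KO saline against WT saline 6.30% of all genes were higher and 12.9% lower, and for the interaction 2.64% and 2.14%. The same shares stand beside the counts of the later lists. The genotype and interaction calls of this list and of the later lists, markers included, are given under the main settings only. With WT saline replicates 2 and 3 averaged, such calls over all genes fell from 541 to 28 for the interaction. For KO saline against WT saline they fell from 2009 to 49.

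Among 15 clock-linked liver genes, a list written by hand, 14 were tested with ConA. In each genotype 10 were lower and 2 higher, with a median log2 fold change of -1.27 in WT and -1.03 in KO. Of all genes tested, 31.0% were called lower and 22.0% higher in WT, and 30.7% lower and 33.9% higher in KO. Whether the fall of these genes follows from that of Dbp, Tef and Hlf was not tested. Cyp7a1, the rate-limiting enzyme of bile acid synthesis, was at 66.8 to 72.5 TPM in WT saline and 0.02 to 0.34 in WT ConA, a log2 fold change of -5.95 (adjusted p = 3.16e-08, limma), and at -4.37 in KO (9.22e-09). Nr1i3, the xenobiotic receptor CAR, fell by 4.95 in WT and 4.45 in KO on the log2 scale. Usp2, a deubiquitinase with a strong daily rhythm in liver, fell by 3.86 and 3.79, and Cyp2a5, a coumarin hydroxylase, by 3.26 and 2.63. Between KO saline and WT saline 3 of 15 were lower, among them Cyp7a1 at -1.65 (adjusted p = 0.00144) and Nr1i3 at -0.78 (0.0105). For the interaction 2 were called higher, Cyp7a1 at 1.59 (0.00203) and Wee1, a cell cycle kinase gene, at 1.71 (0.00785). Cyp7a1 was at 0.02 to 0.34 TPM in every ConA liver of either genotype, under the pseudocount, so its interaction restates the difference between the saline groups. Between the ConA genotypes 0 of 12 were called.

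Glucocorticoid response genes were set beside Per1. Of 9 tested with ConA, 5 were higher and 3 lower in WT, and 5 were higher and 2 lower in KO. Over all genes tested, 22.0% were called higher and 31.0% lower in WT, and 33.9% higher and 30.7% lower in KO. The metallothionein gene Mt2 rose by 2.35 in WT (adjusted p = 7.55e-06, limma) and by 2.29 in KO (1.97e-04), and Mt1 by 2.44 and 2.49. Fkbp5, a chaperone of the glucocorticoid receptor, rose by 1.15 and 1.23. Tsc22d3 (GILZ), another gene that glucocorticoids induce, fell by 1.41 and 2.24. The genes of the list thus moved both ways in both genotypes. Between KO saline and WT saline 1 was lower (Dusp1), for the interaction 1 was higher (Dusp1 at 1.77, adjusted p = 0.0258), and between the ConA genotypes 0 were called.

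**Figure D4:**
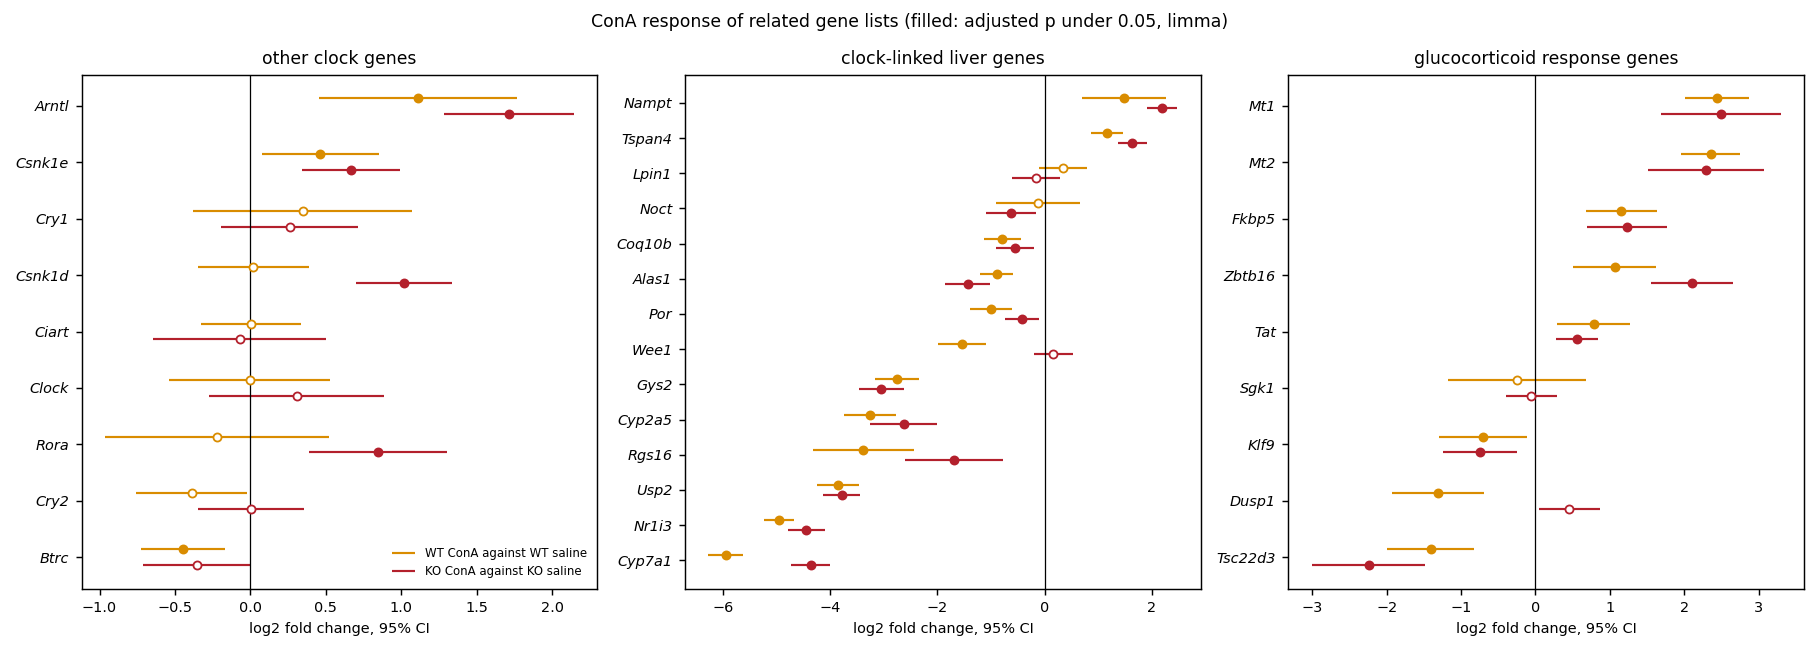
Log2 fold change with its 95% confidence interval with ConA in WT and in KO livers for the other clock genes, the clock-linked liver genes and the glucocorticoid response genes, with filled points for genes called at an adjusted p under 0.05 (limma). Arntl is filled above 0 in both genotypes in the clock list, and 10 of the 14 clock-linked genes are filled below 0 in each genotype.

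Within groups the 10 genes split into sets that varied together from mouse to mouse. After each group's mean was taken away, Pearson's r over the 14 livers was 0.88 between Hlf and Per3, 0.85 between Tef and Hlf, 0.85 between Per2 and Per3, and 0.83 between Tef and Per3. Nr1d2 went with these, at 0.70 to 0.79. Dbp stood outside that set, at 0.01 with Per3 and 0.28 with Tef, and went with Nr1d1 at 0.76. Nfil3 went with Bhlhe40 at 0.61 and against Per1 at -0.51, and Per2 went against Nr1d1 at -0.56. Some of these values rest on single livers. Without WT ConA replicate 4 the r of Dbp with Nr1d1 was 0.35, and without KO saline replicate 3 that of Nfil3 with Per1 was -0.012. With replicate 3 of both ConA groups left out, Hlf with Per3 was 0.77 and Tef with Hlf 0.81. Per2 with Per3 was 0.70 there and Tef with Per3 0.77, but Per2 stood at 0.19 with Hlf and 0.48 with Tef. Over all 14 livers Per2 had been at 0.67 with Hlf and 0.77 with Tef. Nr1d2 stood at -0.099 to 0.29 with the 4 genes of that set without those replicates, and Nfil3 with Bhlhe40 at 0.40. Nfil3 then went against Per3 at -0.89 and against Tef at -0.81, beside -0.47 and -0.48 over all 14 livers. The points share the scaling of their library, and these values are a description.

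**Figure D5:**
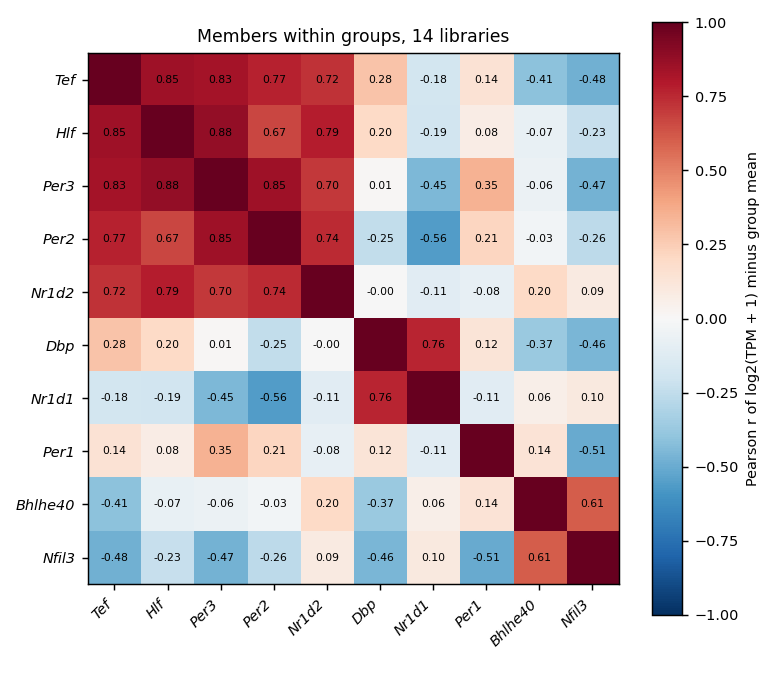
Pearson's r between each pair of the 10 genes over 14 livers, on log2(TPM + 1) minus the mean of the mouse's group, from blue (-1) to red (1). Tef, Hlf, Per3, Per2 and Nr1d2 form a red block. Without replicate 3 of both ConA groups Nr1d2 leaves it (-0.099 to 0.29), and Per2 stands at 0.19 with Hlf and 0.48 with Tef. Dbp pairs with Nr1d1 at 0.76 (0.35 without WT ConA replicate 4), and Nfil3 pairs with Bhlhe40 at 0.61.

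Among 11317 genes compared in the same way, those most like Dbp were Traf4 (r = 0.94), Spns2 (0.90) and Slc38a3 (0.90), a TNF receptor adaptor, a sphingosine 1-phosphate exporter and a glutamine transporter. Traf4 was at 10.1 TPM in WT ConA replicate 4 and 15.3 to 16.5 in the other WT ConA livers. Mt1 (0.87) and Ces1b (0.86) were among those most like Per1. Mt1 was at 1152 TPM in KO saline replicate 3, where Per1 was also lowest, and at 3599 and 3896 in the other KO saline livers. Those most like Nfil3 were Arl4d (0.91), the annexin gene Anxa5 (0.90) and Hspa14 (0.87). Arl4d was at 150.6 and 149.9 TPM in KO ConA replicates 4 and 3, and at 59.8 and 76.6 in replicates 1 and 2.

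Cell type markers moved with ConA too. In bulk liver, fewer cells of a type and less RNA per cell cannot be told apart. The 4 hepatocyte markers used were all lower with ConA in both genotypes, and their summed level was 96732 to 123320 TPM in saline livers, beside 52393 to 75442 in WT livers and 46753 to 59518 in KO livers after ConA. Neutrophil markers were higher for 5 of 6 in each genotype. Their summed level was 5.27 to 11.0 TPM in saline livers, beside 315 to 554 in WT livers and 410 to 944 in KO livers after ConA. S100a8 and S100a9 made up most of that sum after ConA. The remaining marker, Ly6g, was not called and pointed lower, at -1.15 in WT (adjusted p = 0.0631, limma) and -0.21 in KO (0.37). Kupffer cell markers were lower for 4 of 5 in WT and 3 of 5 in KO, at a summed 24.8 to 103 TPM in saline livers and 4.65 to 27.5 in ConA livers. Sinusoidal endothelial markers went both ways, with 2 of 5 higher and 2 of 5 lower in each genotype. T cell markers summed to 1.01 to 4.65 TPM and B cell markers to 0.41 to 4.11 TPM over all livers, and most were too low to be tested. With ConA, 0 of 6 T cell markers were tested in WT and 1 in KO. Of 4 B cell markers, 1 was tested in WT and 0 in KO. Neither of those tested was called, which says little of these cells. Between the genotypes, 2 of 4 endothelial markers tested after saline were higher in KO, and no other marker tested was called in either treatment. No T cell or B cell marker was tested between the genotypes within either treatment. No marker of any list was at 0 in every liver of a group. The part of these shifts in the levels of the 10 genes was not tested.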

How the data were processed

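Liver RNA of 14 mice was sequenced on a BGISEQ-500 (single-end, 50 bases). The deposited values are TPM per gene and library, made by the authors. The submitters' processing notes name Bowtie2, RSEM 1.3.1 and GRCm38.p6, while the study's methods name STAR and HTSeq, so the path from reads to TPM is not settled. The files give no read depth, so the spread between mice was the measure of precision, and edgeR, which the study's methods name and which needs counts, was not used. Groups were taken from the labels.

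Differences were tested with limma 3.58.1 (trended empirical Bayes, R 4.3.3) on log2(TPM + 1), with the libraries of the groups compared, or all 14 for the interaction. Tested were genes with a TPM of at least 1 in a number of libraries no lower than the size of the smaller group, and the p-values were adjusted over all of them by Benjamini-Hochberg, with calls under 0.05. Tests were two-sided. The steps were tested on simulated data. The comparisons share groups: WT saline, WT ConA, KO saline and KO ConA each enter more than 1. The members and lists were chosen with earlier results of these data known. Named are all 10 members, Arntl, Clock, Npas2, Cry1, Cry2 and other clock genes called in any comparison, the 4 genes of each of the clock-linked and glucocorticoid lists with the smallest p in WT ConA against WT saline, and the 3 genes most correlated with Dbp, Per1 and Nfil3 within groups. A few genes that these rules and lists would include are not reported here, and the list counts leave them out. Wee1 and Dusp1 were named after their values were seen. The alternatives tried were no filter or one at a TPM of 5, a pseudocount of 0.1, rescaling by median ratios, all 14 libraries in the fit, a robust fit, a replicate block, WT saline replicates 2 and 3 averaged, leaving out each library, and, chosen after seeing the data, leaving out replicate 3 of both ConA groups. Promoters came from RefSeq (GRCm38.p6), whose gene table held 17604 of the 17656 identifiers. Exon overlaps came from the GENCODE annotation.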

Additional observations from a re-analysis of the deposited data

Results flagged for a closer look

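In 2 of the 20 groups of 4 mice tested (10 genes in WT ConA and KO ConA), the lowest mouse lay far from the other 3 of its group, and chance gives about 1 in 20. Dbp in WT ConA replicate 4 was 2.57 TPM, and its gap to the nearest mouse, on log2(TPM + 1), was 0.917 of the group's range, above the 95% critical value of Dixon's test. Nr1d1 in the same liver was also the lowest of its group, at 8.64 TPM. Nr1d2 in KO ConA replicate 3 was 8.90 TPM, with a gap of 0.951 of the range on the same scale. The causes were not tested.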

How the results depend on the processing

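In WT ConA against WT saline and in KO ConA against KO saline, the number of members called stayed within 1.5 times 8 under every alternative run. In KO saline against WT saline the 2 called members became 1 with no filter, 1 with median-ratio rescaling, 0 with all 14 libraries in the fit, 0 with the WT saline pair (replicates 2 and 3) averaged, and 0 to 3 without single mice. In KO ConA against WT ConA, 0 became 3 with all 14 libraries in the fit and 0 to 1 without single mice. For the interaction 0 became 1 with a filter at a TPM of 5, 2 with both ConA replicates 3 left out and 0 to 2 without single mice.

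These directions reversed, and of the reversed values only Nr1d2 in KO ConA against KO saline was called (without KO ConA replicate 3). Per2 in KO saline against WT saline was 0.0045 after rescaling and -0.23 to 0.17 without single mice. Per1 in KO ConA against WT ConA was -0.070 after rescaling and -0.039 to 0.053 without single mice. The interaction of Hlf was -0.0191 with a pseudocount of 0.1, -0.017 after rescaling and -0.092 to 0.28 without single mice. The interaction of Per1 was 0.00603 with both ConA replicates 3 left out and -0.26 to 0.093 without single mice. Without single mice, Per2 in WT ConA against WT saline ran from -0.31 to 0.0062 (0.0062 also with both ConA replicates 3 left out), Nr1d1 in KO ConA against KO saline from -0.13 to 0.25, Nr1d2 there from -0.18 to 0.25 (0.25 with both ConA replicates 3 left out), Dbp in KO saline against WT saline from -0.31 to 0.065, Per1 there from -0.088 to 0.27, and Nr1d2 in KO ConA against WT ConA from -0.068 to 0.59. The cause was not tested.

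Over all genes, the 2009 calls in KO saline against WT saline became 584 with no filter, 332 with all 14 libraries, 49 with the pair averaged and 45 to 2739 without single mice. The 45 calls in KO ConA against WT ConA became 4 with no filter, 25 after rescaling, 640 with all 14 libraries and 5 to 52 without single mice. The 541 interaction calls became 328 with no filter, 28 with the pair averaged, 1591 with both ConA replicates 3 left out and 22 to 769 without single mice. Rescaling moved the share of higher calls from 32.8% to 49.1% in KO saline against WT saline and from 80.0% to 48.0% in KO ConA against WT ConA, and the median of all genes in the interaction from 0.14 to 0.03.

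The replicate numbers were not taken to pair mice, since the correlation of same-numbered deviations was under 0.1 in at least 1 pair of every comparison (-0.19 to 0.41). With ConA, 2 of 6 libraries in WT and 3 of 6 in KO correlated best with their own number. Between the genotypes this held for 3 of 6 after saline and 2 of 8 after ConA. These values do not exclude a pairing. With a replicate block the members called were 8, 8, 2, 0 and 0, with Hlf (adjusted p = 0.0412) called in place of Per3 (0.0501) in KO saline against WT saline. Over all genes KO ConA against WT ConA had 140 calls instead of 45 and the interaction 358 instead of 541. KO saline against WT saline had 2423 instead of 2009. WT ConA against WT saline had 5065 instead of 5704, and KO ConA against KO saline 6544 instead of 7099.

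TPM carry no depth, so low genes such as Per3 in ConA livers (0.11 to 1.03 TPM) have no counting interval.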
